A study of Drosophila melanogaster with 2 samples.

Results

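The genes described here build and run the sensory cilium of Drosophila mechanosensory neurons, and they were taken by exact symbol from a table of nuclear RNA levels. All 10 listed members (Rfx, fd3F, nan, iav, nompC, nompB, btv, rempA, unc and tilB) were found among 13623 genes. RNA came from nuclei purified by INTACT, where GAL4 under a cell-type promoter switches on a nuclear envelope tag (3xFLAG, blrp, mCherry and RanGap) and tagged nuclei are pulled out of whole embryos with anti-Flag beads. The study used the comparison to follow expression from neural stem cells (NSCs) to neurons. The NSC library came from embryos of 5 to 7 h after egg laying (AEL) with the tag driven by Sca-Gal4 over the cyo balancer, and the neuron library from embryos of 12 to 14 h AEL with the tag driven by Elav-Gal4. The study's methods place the tag, together with the biotin ligase BirA, on a transgene from a w1118 stock that went into both lines. They also state that the Sca-Gal4 parents were crossed to each other while carrying the balancer, so embryos of that line could differ in driver copies. There was 1 library per group, which leaves no replicate error and no test between conditions, and cell type, embryo age and driver cannot be told apart.

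Cilia are rare in the fly. In the embryo they are known from the dendrite tips of type I sensory neurons of the peripheral nervous system, in chordotonal organs (stretch receptors) and external sense organs, and the other ciliated cells are male germ cells. The cilium is assembled by intraflagellar transport (IFT), in which kinesin-2 moves IFT particles outward and dynein-2 moves them back, and the transcription factors RFX and, in chordotonal neurons, the forkhead protein Fd3F switch on its genes. Ion channels of the TRP family in its membrane turn movement into current. The driver gene elav is active in neurons of the central and peripheral nervous system, and sca is active in proneural cell clusters of the early ectoderm.

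Levels are given as FPKM, which counts fragments of a transcript after scaling for its length (per kilobase) and for library size (per 1000000), so that levels can be compared between genes. Depth, estimated from the whole-fragment steps of low values, came to 64.95 M in NSC nuclei and 69.0 M in neuron nuclei, where M stands for 1000000 fragments. The FPKM of all genes summed to 805334 and 669144, and the median over all genes was 5.28 in NSC nuclei and 8.76 in neuron nuclei. Changes are log2((neuron FPKM + 1)/(NSC FPKM + 1)), and "rose" or "fell" is used only where this was at least 1 in size, a 2-fold change on that scale. With 1 added, a gene below 1 FPKM in NSC nuclei cannot fall, whatever its neuron value, and a gene below 1 FPKM in neuron nuclei cannot rise. Counts of falls are limited by this in every list of low genes below. The added 1 also understates the change of genes as low as these, so the plain FPKM ratio is given beside it for each member and for the lists of low genes, where the order of genes depends on which of these is used. Its 95% interval (exact Clopper-Pearson, from estimated fragments) covers counting error only and not the variation between preparations. For genes with several transcripts the interval can be too narrow, because fragments were estimated from the joined exons of all transcripts.

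The cilium genes were scarce in NSC nuclei and most were more abundant in neuron nuclei. Of the 10 members, 7 rose (Rfx, nompB, rempA, btv, iav, fd3F and nompC), none fell and 3 stayed within 2-fold (nan, tilB and unc). Only Rfx, tilB and unc, at 1 FPKM or more in NSC nuclei, could fall with 1 added. Over all 13623 genes, 20.1% rose and 12.4% fell. Over the 10158 genes that reached 1 FPKM in either library, 26.9% rose and 16.6% fell. These shares are also the background for the counts of each list below. The median log2 change was 1.27 for the members and 0.07 for all genes. The members' summed FPKM was 9.08 in NSC nuclei and 44.2 in neuron nuclei, where Rfx alone contributed 21.6. Without the added 1, 9 members had more FPKM in neurons, as did 55.3% of all genes, and the same 7 were at least 4-fold higher, a ratio found at 17.9% of the 11886 genes above 0 in both libraries. Scaling each library to a fixed sum (TPM) raised the median log2 change of the genes that reached 1 FPKM by 0.26 and the share of rises among the changed genes from 61.9% to 74.2%, but the members' counts of 7 and 0 were unchanged. With 5 added to FPKM in place of 1, Rfx alone stayed past 2-fold.

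**Figure D1:**
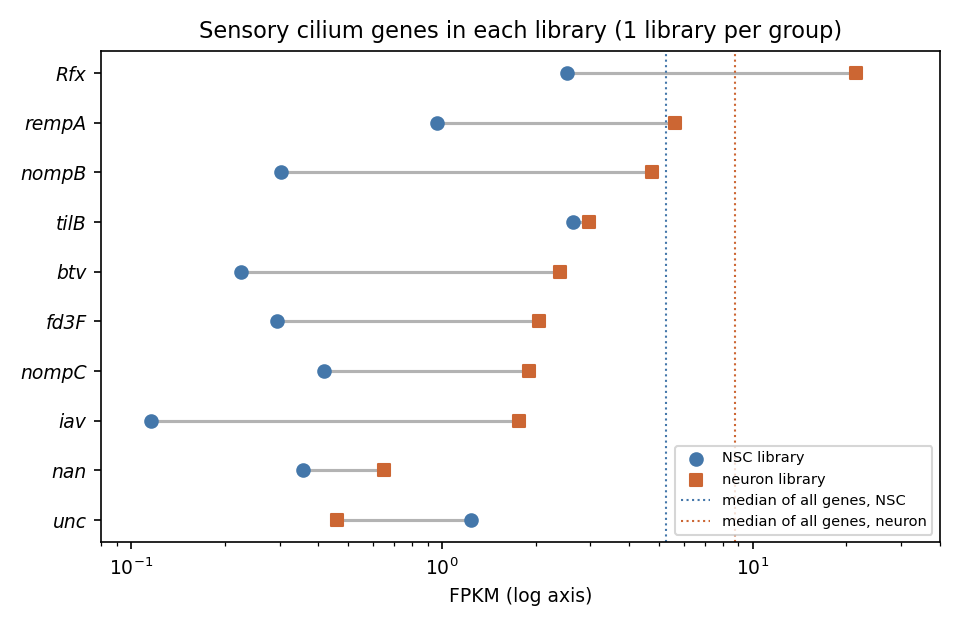
FPKM (log axis) of the 10 cilium genes in the NSC library (circles) and the neuron library (squares), 1 library per group, with dotted lines at the median of all genes in each library. Every gene but unc lies further right in neurons, and only Rfx, at 21.6 FPKM, passes the neuron median of 8.76 FPKM.

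A level of 1 FPKM was reached by 3 members (Rfx, tilB and unc) in NSC nuclei and by 8 members, all but nan and unc, in neuron nuclei. A filter on this level kept 9 members and dropped nan. Of these 9, 6 passed through the neuron library alone (fd3F, iav, nompC, nompB, btv and rempA) and so had to be higher there, unc passed through the NSC library alone, and Rfx and tilB passed in both. For this reason all 10 members are described without a filter. No member was above the median gene in NSCs and 1, Rfx, was above it in neurons. Fewer ciliated cells and less RNA per cell cannot be told apart in such bulk samples.

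The transcription factors come at the head of this program. Rfx (FBgn0020379, arm 3R) encodes the winged-helix factor that binds the X-box promoter element of many ciliary genes. It was measured at 2.53 FPKM in NSC nuclei and 21.6 FPKM in neuron nuclei, the highest member of the neuron library (percentile 68.1 of all genes). Its log2 change of 2.68, with 1 added, was the largest of the members and lay at percentile 95.9 of all genes. The plain ratio was 8.54, with a counting interval of 7.96 to 9.16, on about 879 and 7975 estimated fragments, and was below those of nompB, iav and btv. Its NSC level was already above that of 8 other members, so that Rfx RNA was not confined to the neuron library.

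The partner factor fd3F (FBgn0264954, arm X), a forkhead gene that specialises the chordotonal cilium, was much lower. Its level was 0.294 FPKM in NSC nuclei and 2.05 FPKM in neuron nuclei. This was a rise of 1.24 on the log2 scale (percentile 83.9) and a plain ratio of 6.97 (5.20 to 9.37). A long non-coding RNA on the opposite strand shares 179 bp of exons with fd3F in the annotation used, and its part in the value was not tested.

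Of 12 regulators of sense organ fate, many of which act earlier, when precursors are chosen, 6 fell and 3 rose, with a median log2 change of -1.10. The chordotonal proneural gene ato was 14.9 FPKM in NSC nuclei and 0.0336 FPKM in neuron nuclei, a fall of 3.95 on the log2 scale, and ac fell from 49.9 to 1.49 FPKM (-4.35). The rises were those of ct, a homeobox gene that sets external sense organ identity (8.72 to 49.9 FPKM, 2.39), sv, a Pax gene of sense organ lineages (5.56 to 31.2 FPKM, 2.30), and Poxn, a Pax gene of poly-innervated organs (1.67 to 5.01 FPKM, 1.17). The sv value can include reads of Cals on the opposite strand, which shares 444 bp of exons with it and went from 93.8 to 234 FPKM. A proneural relative of ato, cato, had 5.05 and 2.41 FPKM (-0.83, within 2-fold). The names ato, sv, Poxn and cato were picked after their values had been seen.

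**Figure D2:**
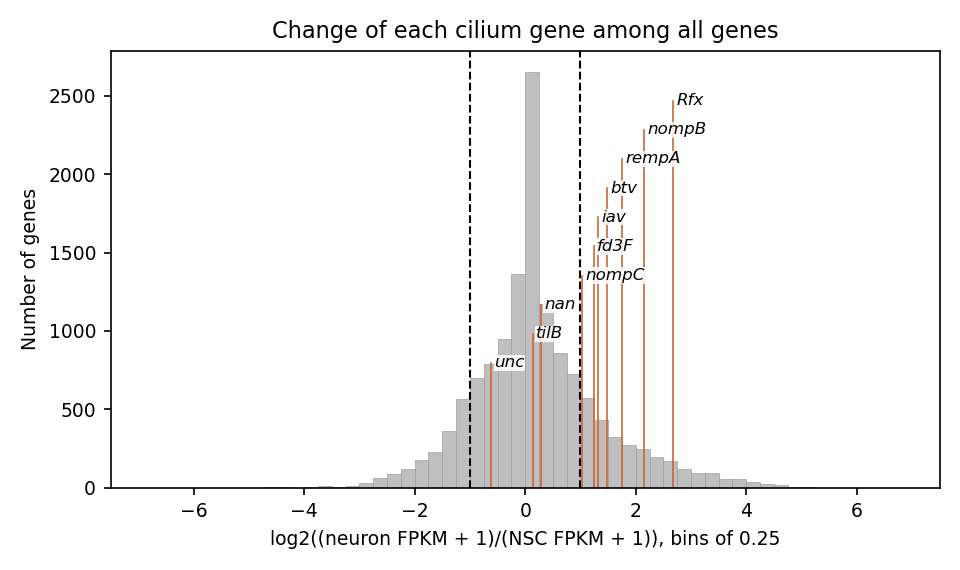
Number of genes (y axis) by log2 change from NSC to neuron (x axis, bins of 0.25; all 13623 genes), with vertical orange lines, whose height has no meaning, at the 10 cilium genes. Dashed lines mark 2-fold, and 7 members lie beyond the right one, from nompC at 1.04 to Rfx at 2.68.

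The channel genes among the members, nompC, iav and nan, were low in both libraries, each below 2 FPKM. The gene nompC (FBgn0016920, arm 2L) encodes a TRPN channel with a long ankyrin repeat domain that acts as the spring of the mechanotransducer. It had 0.418 FPKM in NSC nuclei and 1.91 FPKM in neuron nuclei. Its log2 change of 1.04 was just past the 2-fold mark, whereas the plain ratio was 4.57 (3.88 to 5.37).

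The TRPV subunits iav (FBgn0086693, arm X) and nan (FBgn0036414, arm 3L) are known to form a single heteromeric channel of the chordotonal cilium, in which each protein needs the other to be stable. Only the RNA of iav passed 2-fold. The level of iav was 0.116 FPKM in NSC nuclei, the lowest of all members, and 1.77 FPKM in neuron nuclei, a log2 change of 1.31 and a plain ratio of 15.3 (10.2 to 23.8) on about 24.9 and 404 fragments. The level of nan was 0.358 FPKM in NSC nuclei and 0.650 FPKM in neuron nuclei, a log2 change of 0.28 and a plain ratio of 1.82 (1.32 to 2.50) on about 61.6 and 119 fragments. The counting intervals of these ratios do not overlap, although nan was below 1 FPKM in both libraries. In neurons iav was 2.72 times as abundant per length as nan (2.21 to 3.36), and in NSCs it was the lower of the pair.

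Of 9 other TRP genes in the table, 3 rose and none fell, beside 20.1% and 12.4% of all genes. Only pain, trpm, pyx and wtrw, at 1 FPKM or more in NSC nuclei, could fall with 1 added. The median log2 change of the 9 was 0.70. By plain ratio 5 of the 9 were at least 4-fold higher in neuron nuclei (pain, trp, trpl, trpgamma and Pkd2). With 1 added, the highest change was that of pain, a nociception channel, from 2.41 to 19.3 FPKM (2.57; plain ratio 8.002), and its exons share 173 bp with NaCP60E on the opposite strand. The second gene, trpm, a TRPM channel, had 7.47 and 18.8 FPKM (1.23; plain ratio 2.52), and the third, pyx, a heat-sensitive channel, had 1.97 and 5.70 FPKM (1.18; plain ratio 2.90). On the opposite strand, exons of CG13877, at 0 and 0.330 FPKM, share 477 bp with pyx, and those of Kaz1-ORFB, at 5.63 and 9.02 FPKM, share 127 bp. The lowest with 1 added was the photoreceptor channel gene trp, at 0.0156 and 0.135 FPKM (0.16), although its plain ratio was 8.70 (3.13 to 33.6). The remaining 5 family members also lay within 2-fold on the log2 scale with 1 added. Of these, wtrw had 1.16 and 1.48 FPKM, the lowest plain ratio of the 9 (1.27). The plain ratio was 5.22 (3.82 to 7.14) for trpl, 5.38 (4.02 to 7.25) for trpgamma, 2.47 (1.83 to 3.39) for TrpA1 and, on few fragments in NSC nuclei, 26.8 (10.1 to 99.3) for Pkd2. Per length, the cilium channel genes nompC and iav were lower in neuron nuclei than pain, trpm and pyx. They were higher there than wtrw, trpl, trpgamma, Pkd2, TrpA1 and trp.

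Over all genes, 20.1% rose and 12.4% fell. The 8 mechanosensory genes of other classes lay near these shares, with 2 higher, 1 lower and a median log2 change of 0.21. Among them nompA rose most, from 1.57 to 64.7 FPKM (4.68). It encodes the dendritic cap protein that ties the cilium to the cuticle and is known to be made by support cells, not by the neuron. The other rise was eys, a secreted protein of the fluid-filled space around the cilium, from 0.813 to 10.5 FPKM (2.67). In contrast, rpk, a DEG/ENaC channel gene, fell from 69.5 to 12.4 FPKM (-2.39). Of its 2536 bp of exons, 1531 bp are shared with an antisense RNA. Piezo, another mechanosensory channel gene, had 43.2 and 32.4 FPKM (-0.40, within 2-fold), well above the channel genes among the members.

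The 3 transport genes among the members all rose. The IFT-B subunit gene nompB (IFT88; FBgn0016919, arm 2L) was 0.304 FPKM in NSC nuclei and 4.76 FPKM in neuron nuclei. Its log2 change was 2.14 (percentile 92.8) and its plain ratio 15.6 (11.8 to 21.3). The dynein-2 heavy chain gene btv (FBgn0023096, arm 2L), which drives return transport, was 0.226 FPKM in NSC nuclei and 2.40 FPKM in neuron nuclei, a log2 change of 1.47 and a plain ratio of 10.6 (9.16 to 12.4). The IFT-A subunit gene rempA (IFT140; FBgn0260933, arm 2L) had 0.963 and 5.62 FPKM, a log2 change of 1.75 and a plain ratio of 5.84 (5.21 to 6.55). In the annotation used, 640 bp of the 5772 bp of rempA exons overlap those of Tspo on the opposite strand. Tspo is listed under CG2789 and had 2.76 FPKM in NSC nuclei and 3.93 FPKM in neuron nuclei, and its part in the rempA values was not tested.

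Other transport subunits did not all follow. The other 4 IFT-A genes stayed within 2-fold, between 5.06 and 10.97 FPKM in NSCs and between 5.13 and 10.8 FPKM in neurons, with log2 changes from -0.03 for Oseg4 to 0.29 for Oseg1. Oseg1 shares 695 bp of exons with Exo70 on the opposite strand, a gene at 9.41 and 10.01 FPKM. In NSCs rempA was thus lower than each of these 4 subunits, and in neurons it lay above Oseg6 and below Oseg4, Oseg1 and CG5780 (IFT43). Among 7 further IFT-B genes, 3 rose and none fell, and the median log2 change was 0.83. With 1 added they were led by CG3259 (IFT54), from 0.549 to 3.81 FPKM (1.64, plain ratio 6.94). By plain ratio 4 of the 7 were at least 4-fold higher, led by CG15161 (IFT46), from 0.262 to 2.03 FPKM (7.75, 5.00 to 12.0). The lowest IFT-B change was that of Oseg5, at 3.67 and 4.04 FPKM (0.11). The 3 listed kinesin-2 genes with a row all rose, from 1.10 for Klp68D to 1.62 for Klp64D (5.79 to 19.9 FPKM). Kinesin-2 also carries cargo in axons.

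The BBSome, a coat that moves membrane proteins in and out of the cilium, was as scarce in NSC nuclei as the members. Of its 6 genes, counting Arl6, which recruits the coat, 4 rose and none fell. Only Arl6, at 1.03 FPKM in NSC nuclei, could fall with 1 added. The highest was CG1126 (BBS5), with 0.106 FPKM in NSC nuclei and 3.42 FPKM in neuron nuclei (2.00; plain ratio 32.3, 15.6 to 82.1), and the lowest was BBS1, with 0.311 and 0.700 FPKM (0.37; plain ratio 2.25). Exons of Acbp4, at 55.0 and 39.1 FPKM, overlap 206 bp of BBS1 on the opposite strand. The log2 changes of the 6 genes had a median of 1.60. Their median level was 0.272 FPKM in NSC nuclei and 3.07 FPKM in neuron nuclei, compared with 0.388 and 2.23 FPKM for the 10 members.

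The basal body gene unc (FBgn0003950, arm X) was the only member with a lower value in neurons. Its protein sits in the centriole at the base of the cilium and is needed for mechanosensory cilia and for sperm. It had 1.24 FPKM in NSC nuclei and 0.459 FPKM in neuron nuclei, the lowest level of the neuron library among the members. The log2 change was -0.62, within 2-fold, but the plain ratio was 0.370 (0.304 to 0.451), so the NSC level was 2.70 times the neuron level on about 368 and 145 fragments. With an added 0.1 in place of 1 the log2 change was -1.26, past 2-fold.

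Most genes of the gate between basal body and cilium had more FPKM in neurons. Of 7 such genes beside unc, 3 rose and 1 fell, with a median log2 change of 0.93. The remaining 3 lay within 2-fold and were also higher in neurons. CG13889 (Cep290) rose most, from 0.324 to 6.42 FPKM (2.49; plain ratio 19.9), and 3 of the 7 had a plain ratio of at least 4. Of these 3, CG15730 (Mks1), at 0.0610 and 0.939 FPKM, could not rise with 1 added, and its plain ratio was 15.4. The fall was that of CG8116, which RefSeq names TMEM216, from 124.7 to 59.1 FPKM (-1.06). It shares 1517 of its 2812 bp of exons with CG11760 on the same strand, a gene at 0.477 and 8.67 FPKM. The value of CG8116 is thus uncertain, and so is which of these genes the name belongs to. With TPM scaling the change of CG8116 was -0.80, within 2-fold. Centriole genes, which dividing cells also use, fell in 7 of 9 cases and rose in 1, with a median log2 change of -1.74. The largest of these falls was that of sas-6, a cartwheel protein gene, from 17.4 to 2.04 FPKM (-2.60), and the rise was that of cp309 (Plp), a pericentrin-like gene, from 35.3 to 76.97 FPKM (1.10). The exons of cp309 share 352 bp with sstn on the same strand, a gene at 30.2 and 14.9 FPKM.

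The motility gene tilB (FBgn0014395, arm X) did not differ between the libraries beyond counting error in FPKM as deposited. It encodes a leucine-rich repeat protein needed to put together the dynein arms that let chordotonal cilia and sperm tails beat. It had 2.63 FPKM in NSC nuclei, the highest of the members there, and 2.98 FPKM in neuron nuclei. The log2 change was 0.13 (percentile 54.2), and the interval of the plain ratio of 1.13 included 1 (0.933 to 1.37). With TPM scaling the log2 change was 0.35, still within 2-fold, and the interval given does not apply to that scale. In the annotation used, exons of wap on the opposite strand overlap those of tilB by 19 bp, and wap, listed under CG14614, had 118 FPKM in NSC nuclei and 47.7 FPKM in neuron nuclei. What wap reads add to tilB was not tested.

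Genes of the dynein arms and of their assembly had a median level of 0.328 FPKM in NSC nuclei and 1.46 FPKM in neuron nuclei. Of 12 genes, 2 rose and 1 fell, and the median log2 change was 0.71. This count rests on the added 1, since 6 rose with 0.1 added and 7 had a plain ratio of at least 4, a ratio found at 17.9% of genes above 0 in both libraries. The axonemal heavy chains Dhc93AB (0.377 and 1.79 FPKM, 1.02) and Dhc36C (0.1995 and 1.43 FPKM, 1.02) passed 2-fold with 1 added, with plain ratios of 4.76 and 7.15. The remaining heavy chains in the list did not, with 0.279 and 1.49 FPKM for Dhc62B (0.96), 0.0608 and 0.713 FPKM for Dhc98D (0.69), and 0.00881 and 0.461 FPKM for Dhc16F (0.53). Their plain ratios were 5.34 (4.63 to 6.22), 11.7 (9.06 to 15.5) and 52.3 (25.2 to 131). All 5 heavy chains had more FPKM in neurons, as did their dynein-2 relative btv. The fall was that of CG6971, an inner arm light chain gene, from 7.23 to 2.20 FPKM (-1.36), and its exons share 77 bp with CG31368, at 31.9 and 17.03 FPKM, on the opposite strand.

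**Figure D3:**
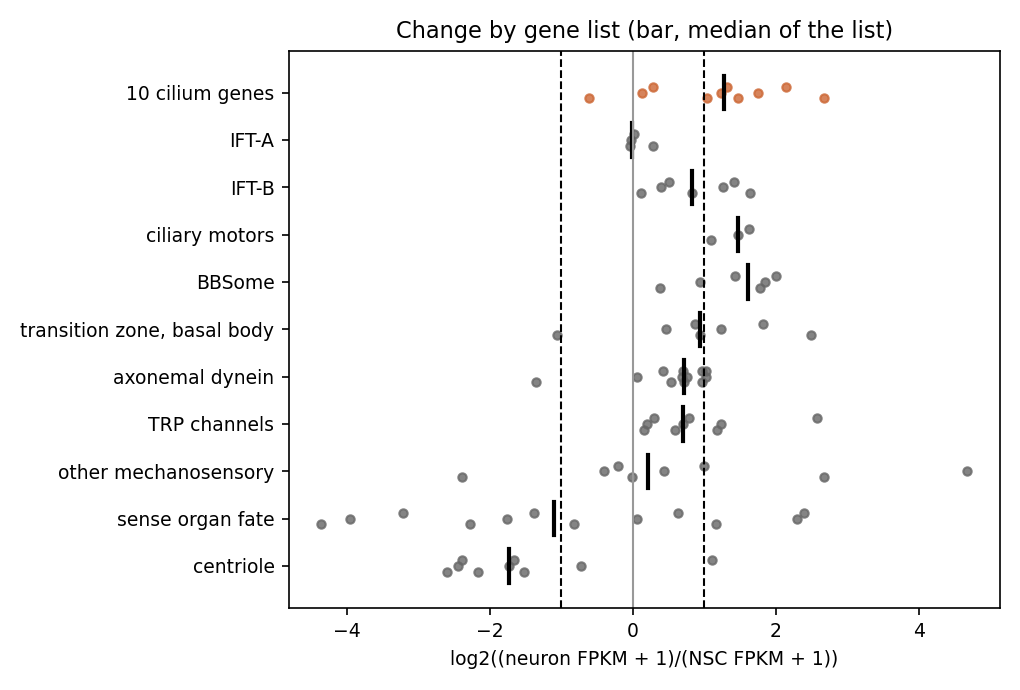
Log2 change from NSC to neuron (x axis) of each gene (points) in the 10 cilium genes and in 10 lists by role, which leave those 10 genes out, with the list median as a bar and 2-fold as dashed lines. The BBSome median was 1.60 and that of the 10 genes 1.27, whereas IFT-A lay at -0.00498 and the centriole list at -1.74. Points are spread vertically only to keep them apart.

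Over the 6 lists of cilium structure together, 39 genes were measured beside the members. Of these, 15 rose, 2 fell (CG6971 and CG8116, the latter of uncertain value), and 35 had more FPKM in neurons by some amount. Their median log2 change was 0.87. Their median level was 0.633 FPKM in NSC nuclei and 2.91 FPKM in neuron nuclei, and 18 had a plain ratio of at least 4. Over all genes, 20.1% rose, 12.4% fell and 55.3% had more FPKM in neurons by some amount, and 17.9% of those above 0 in both libraries had such a ratio.

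The members were also put in order of level. In NSCs the order from high to low was tilB, Rfx, unc, rempA, nompC, nan, nompB, fd3F, btv and iav. Here tilB and Rfx did not differ beyond counting error, nor did any neighbours from nompC to btv. In neurons the order was Rfx, rempA, nompB, tilB, btv, fd3F, nompC, iav, nan and unc, in which neighbours from fd3F to iav did not differ beyond counting error. The position of tilB thus went from the top to the fourth, and that of nompB from the seventh to the third. The spread of repeated preparations is not known, so these orders belong to the libraries.

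**Figure D4:**
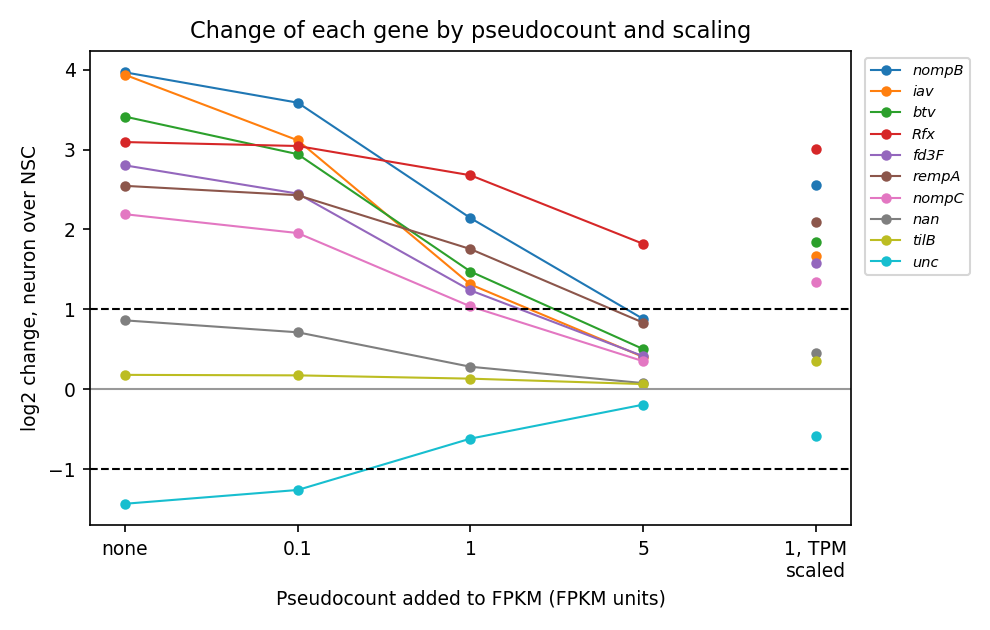
Log2 change of each cilium gene (y axis) with nothing, 0.1, 1 or 5 added to FPKM and, as unconnected points, with 1 added after TPM scaling. Dashed lines mark 2-fold. With 5 added only Rfx stays past 2-fold, at 1.82, and unc is below 0 throughout.

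Markers of cell types in the embryo were examined beside these results. Of 7 neuron markers, 6 rose, elav being the exception (46.5 and 77.0 FPKM), and their summed FPKM went from 75.3 to 499. Of 7 NSC markers, 4 fell and none rose, with sums of 421 and 114.8 FPKM. Among markers of other tissues, 6 of 7 rose for muscle, 4 of 6 for trachea, 3 of 6 for glia, 3 of 7 for hemocytes and 2 of 7 for epidermis, beside 26.9% of the genes that reached 1 FPKM. The median log2 change was -0.22 for the epidermis markers. The muscle markers ranged from 10.96 to 382 FPKM in NSCs and from 49.4 to 2131 FPKM in neurons. Their summed FPKM was 813 and 3981, compared with 122 and 874 for trachea, 181 and 318 for glia, 145 and 730 for hemocytes and 141 and 223 for epidermis. None of these markers was at 0, and trachea and epidermis each held 1 marker that fell. The part of other tissues in the cilium gene values was not tested. Of 10 testis markers, which stand for the other ciliated cells of the fly, 7 were listed at 0 in NSC nuclei (dj, ocn, Mst98Ca, Mst98Cb, Mst84Da, Mst84Db and can) and 2 of these, Mst84Da and Mst84Db, also in neuron nuclei. Over all genes, 1617 were at 0 in NSC nuclei and 722 in neuron nuclei. Of the 10 testis markers, 2 rose, beside 20.1% of all genes, and these were also the highest of the 10 in neuron nuclei. They were fzo, at 0.419 and 3.33 FPKM (1.61, plain ratio 7.95), and betaTub85D, at 0.112 and 1.66 FPKM (1.26, plain ratio 14.8).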

How the data were processed

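Nuclear RNA of 1 NSC and 1 neuron library was sequenced on an Illumina HiSeq. According to the study's methods and the labels, the authors aligned reads to FlyBase 5.43 transcripts (genome dm3) with TopHat 1.3.1 and computed FPKM from uniquely mapped reads with Cuffdiff 1.3.0. Strandedness, read length and gene filters were not given in the sources used here. The labels describe cross-linked embryos, the methods uncrosslinked embryos for RNA, and the ageing times in the labels do not add up to the stated ages, which were used. The deposited FPKM table repeats its header line before every gene; these lines were dropped, and all remaining values were numbers of at least 0.

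Columns were matched to samples by title. Change was log2(FPKM + 1) in neurons less that in NSCs, with 2-fold as the mark. With 1 library per group no p-value was computed. Lists by role were matched by exact symbol, spelling variant or a single RefSeq synonym (assembly Release 6), and 10 listed names found no row. Exonic lengths, overlaps and identifiers came from Ensembl release 115 (BDGP6), another assembly than dm3, so no coordinates are given. Estimated fragments are FPKM times exonic length less 200 bp times depth. Depth was the value that put low genes with a single transcript (396 in NSCs, 624 in neurons) nearest whole fragments, and it was tested on simulated data. Intervals cover counting error only. The alternatives were a pseudocount of 0.1 or 5, TPM, median and upper quartile scaling, and 3 other filters.

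The text names all members, and of each list the genes with the highest and lowest change and relatives of members. The genes eys, Piezo, Klp68D, elav, fzo, betaTub85D, CG15730, CG15161 and the other fate and IFT-A genes named were chosen after their values were seen. The members and lists were chosen with earlier results of these data known. Python 3.11.15, numpy 2.4.6 and scipy 1.17.1 were used.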

Additional observations from a re-analysis of the deposited data

How the results depend on the processing

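Each member kept its direction under each alternative that gave it a value. With a pseudocount of 5 only 1 member rose (Rfx), the members' median log2 change was 0.41, 1631 genes of all rose, and the rising genes numbered 0 for IFT-B, 0 for the BBSome, 1 for the transition zone, 0 for axonemal dynein and 1 for TRP channels, while the falling axonemal dynein genes numbered 0. Keeping only genes that reached 5 FPKM in either library left 2 rising members, and 0, 0, 1 and 0 rising genes for IFT-B, BBSome, transition zone and axonemal dynein. Keeping only genes that reached 1 FPKM in both libraries left 1 rising member, the same 0, 0, 1 and 0, and 1 in the other mechanosensory list; both filters test fewer of these low genes by construction. With a pseudocount of 0.1, 1 member fell (unc) and 6 axonemal dynein genes rose. TPM scaling gave 5 rising axonemal dynein genes and 0 falling transition zone genes. Leaving out the pseudocount, chosen after seeing the data, also made unc fall (1 member). No paired analysis was possible because each group has 1 library, and no replicate could be left out. At these depths the lowest member, iav in NSCs, rests on about 24.9 estimated fragments.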

Other observations

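The members differ in gene span, the distance from start to end with introns included. Their spans ran from 1727 bp for tilB to 19848 bp for btv, and 6 of the 10 (btv, nompC, Rfx, nompB, fd3F and rempA) were in the longest 20% of genes, of 6499 bp or more. Of all genes in that class 40.3% rose and their median log2 change was 0.66, compared with 9.32% in the shortest class, of up to 1046 bp. All 6 of these members rose. The only member with a shorter span that rose was iav (4179 bp), whereas unc (5501 bp), nan (3400 bp) and tilB (1727 bp) did not. The part of gene span in the members' changes was not tested.

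By chromosome the members fall on X (fd3F, iav, unc and tilB), 2L (nompC, nompB, btv and rempA), 3L (nan) and 3R (Rfx). Members with a change past 2-fold were found on X, 2L and 3R. Of the 2 members on X that stayed within 2-fold, tilB and unc, both had more FPKM in NSCs than the X-linked members that rose. CG5674, which lies within the span of btv on the opposite strand, shares no exonic base with it and had 25.6 FPKM in NSC nuclei and 21.3 FPKM in neuron nuclei.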
